A study of Mus musculus with 2 samples.

Results

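Dendritic cells were examined in single-cell RNA sequencing data from whole mouse lungs seeded with metastatic mammary tumour cells. They were chosen by summed counts of unique molecular identifiers (UMIs, 1 per captured transcript molecule) per 10000 UMIs of a cell. A cell was included at 30 or more for the MHC class II genes H2-Aa, H2-Ab1 and H2-Eb1, and under 10 for the macrophage complement genes C1qa, C1qb and C1qc, 20 for the alveolar macrophage genes Ear2 and Chil3, 3 for the B cell genes Cd79a and Cd79b, 2 for the T cell genes Cd3d, Cd3e and Cd3g, and 150 for the epithelial surfactant gene Sftpc. This rule found 428 of 5506 cells, 226 in the low-burden library and 202 in the high-burden library. Met-1, a mouse mammary carcinoma line, was given by tail vein to female FVB/NJ mice at 10 weeks of age. The low-burden lung was taken at week 1 and the high-burden lung at week 3, and lungs were perfused and dissociated with enzymes before droplet capture (10x Genomics). Each group was 1 mouse and 1 library, both had the same batch label, and no uninjected lung was used here. Tumour burden, week, mouse, library and sequencing depth therefore cannot be told apart, and no test between the groups was possible. All intervals below are exact 95% intervals that cover counting error only.

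Dendritic cells take up antigen in tissues such as the lung, load peptides on MHC class II molecules and carry them to lymph nodes, where they activate T cells. Conventional type 1 cells bear the chemokine receptor Xcr1 and are known for presenting engulfed material to CD8 T cells, and type 2 cells mainly serve CD4 T cells. On maturation, both kinds turn on Ccr7, the receptor that guides them to lymph nodes, and bundle actin with Fscn1. Flt3 is the receptor for the growth factor that sustains the lineage, and Naaa and Plbd1 encode lipid hydrolases that mark it.

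The promoters of MHC class II genes share a compact element that is occupied by RFX, CREB and NF-Y factors and read by the coactivator Ciita. The stretches shown here carry exact matches to parts of that element, in genes whose transcripts are described below. Sequences are from RefSeq (GRCm38.p6), on the strand of the gene, and cover chr17:34287852-34287923 for H2-Aa, chr17:34305756-34305827 for H2-Eb1, chr17:34153078-34153149 for H2-DMb1 and chr17:34145107-34145178 for H2-DMb2. Capitals mark TGATTGG (the NF-Y box) and GATGATG (a core of the X box), and the spacing between their first bases was 24 in H2-Eb1 and 25 in both H2-DMb genes. The H2-Aa stretch had TGATTGG but no exact GATGATG.
H2-Aa: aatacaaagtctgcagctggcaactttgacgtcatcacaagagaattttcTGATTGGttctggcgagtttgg
H2-Eb1: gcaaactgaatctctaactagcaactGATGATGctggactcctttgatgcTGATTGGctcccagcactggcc
H2-DMb1: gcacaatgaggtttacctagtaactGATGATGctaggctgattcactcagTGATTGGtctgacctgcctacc
H2-DMb2: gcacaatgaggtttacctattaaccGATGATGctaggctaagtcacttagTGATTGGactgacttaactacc
Of 10 listed class II presentation genes with a promoter entry (250 bases before to 50 after the start), 6 held TGATTGG on either strand and 3 held GATGATG. Across all 32851 mouse promoters in the table, 7.82% held TGATTGG, 3.48% held GATGATG and 0.237% held both. The H2-DMb1 and H2-DMb2 stretches were identical at 63 of 72 bases, and because the genes are close copies, reads could have been split between them and their separate counts are uncertain.

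The rule alone did not select dendritic cells cleanly, and this differed by library. Of the 226 low-burden cells, 91 (40.3%) carried 20 or more UMIs per 10000 of endothelial genes (Cdh5, Pecam1, Cldn5, Kdr, Ramp2, Calcrl, Tmem100 and Egfl7), against 5 of 202 (2.48%) at high burden. Only 142 and 188 cells reached 5 per 10000 of the leukocyte genes Ptprc, Cd52, Coro1a and Laptm5. A screen chosen after these values were seen asked for 5 or more of the leukocyte genes, under 20 of the endothelial genes and under 100 of the club cell gene Scgb1a1. It removed 92 low-burden cells (40.7%, 34.2 to 47.4) and 18 high-burden cells (8.91%, 5.37 to 13.7). The removed low-burden cells stood at 4012 CPM (UMIs per 1000000) of Cldn5, an endothelial tight junction gene, and had a Plbd1 UMI in 5 of 92 cells and an Naaa UMI in 12. The screened cells had a Plbd1 UMI in 117 of 134 at low burden and 140 of 184 at high burden, and an Naaa UMI in 108 and 144. Those 318 screened cells are described below unless all 428 are named. Per kept cell they made up 5.42% (4.56 to 6.39) of the low-burden and 6.07% (5.24 to 6.98) of the high-burden library, and per cell with leukocyte transcripts 12.02% (10.2 to 14.1) and 15.8% (13.7 to 18.0). Before the screen the shares of kept cells were 9.14% (8.03 to 10.3) and 6.66% (5.80 to 7.61), so the order of the libraries turned with the screen.

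**Figure D1:**
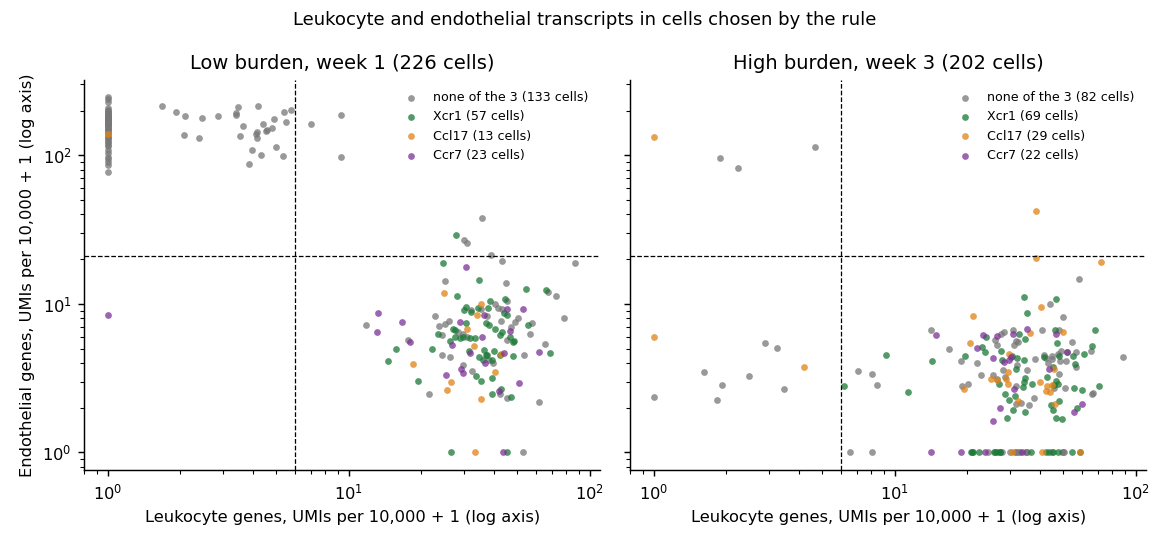
Each point is 1 of the 428 cells chosen by the rule, with summed UMIs per 10,000 of the leukocyte genes on the x axis and of the endothelial genes on the y axis (both plus 1, log scales), 1 panel per library and coloured by subtype; dashed lines mark the screen's limits. The cells high in endothelial and low in leukocyte genes sit almost wholly in the low-burden panel (91 cells against 5 at or above the endothelial limit).

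Cells just inside and just outside the class II limit were few at high burden and many at low burden. Between 25 and 30 per 10000 there were 34 low-burden and 11 high-burden cells, and between 30 and 35 there were 23 and 4. The nearest values were 29.97 and 30.38 at low burden and 29.34 and 30.64 at high burden. Of the screened cells, 19 and 16 were under 100.

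The 2 deposited matrices held 2668 cells with 14041471 UMIs at low burden and 3121 cells with 52723173 UMIs at high burden. Kept cells had a median of 4073 and 13998 UMIs and a minimum of 2388 and 5163. The screened dendritic cells had close medians, at 7199 and 7163, but minima of 2708 and 5192. Kept cells under 5163 UMIs were thus present at low burden only. The libraries shared 11 barcodes, none of them a dendritic cell. Every screened cell in both libraries carried Scgb1a1, a secreted protein of club cells, at 2496 CPM and 1579 CPM over all, and T cells of the same libraries had 2527 and 1412. PYMT, the transgene of the tumour line, had no UMI in the 134 low-burden dendritic cells (an upper limit of 2.24%) and a UMI in 78 of 184 at high burden (42.4%, 35.1 to 49.9). High-burden T cells had it in 27 of 55 (49.1%, median 7565 UMIs). Levels of secreted and tumour genes in the dendritic cells are therefore given beside those in T cells, and the part of RNA from outside the cell was not tested.

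Subtypes were assigned by 1 or more UMIs of Ccr7, then Xcr1, then Ccl17, so these 3 genes are a description of the groups and not a finding. At low burden 56 screened cells were Xcr1 (41.8%, 33.3 to 50.6), 22 were Ccr7 (16.4%, 10.6 to 23.8), 12 were Ccl17 (8.96%, 4.71 to 15.1) and 44 had none of these genes (32.8%, 24.97 to 41.5). At high burden 68 were Xcr1 (37.0%, 29.97 to 44.4), 22 were Ccr7 (11.96%, 7.65 to 17.5), 25 were Ccl17 (13.6%, 8.99 to 19.4) and 69 had none (37.5%, 30.5 to 44.9). For each subtype the intervals of the libraries overlapped. After each cell was thinned to 2000 UMIs, Xcr1 cells made up 19.4% and 18.5%, Ccr7 cells 7.46% and 7.07%, and Ccl17 cells 11.2% and 10.3%. With 2 UMIs of the subtype gene asked for, Xcr1 cells made up 30.6% and 25.5%. Ccr7 cells were then 4.48% (6 of 134) and 8.70% (16 of 184), and Ccl17 cells 14.2% and 9.78%. The order of the libraries thus turned for Ccr7 and Ccl17 cells. Over all 428 cells, the group with none of the 3 genes was 133 of 226 (58.8%) at low burden and 82 of 202 (40.6%) at high burden, and it held most of the cells that the screen removed.

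**Figure D2:**
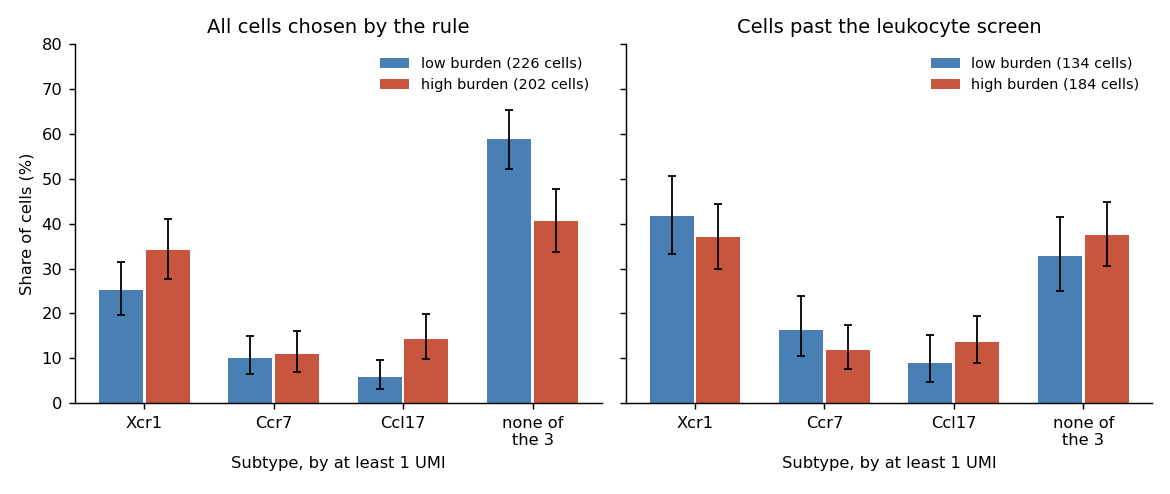
Bars give the percentage of dendritic cells in each subtype in the low-burden and high-burden libraries, for all 226 and 202 cells and for the 134 and 184 screened cells, with exact 95% intervals that cover counting error only. In the screened cells every pair of intervals overlaps, whereas among all cells the group with none of the 3 genes stands at 58.8% and 40.6%.

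Single UMIs of these genes also occurred outside dendritic cells. Xcr1 was seen in 66 of 226 (29.2%) and 73 of 202 (36.1%) of all cells chosen by the rule, against 0 of 65 and 27 of 857 (3.15%, median 10552 UMIs) C1q macrophages and 1 of 273 and 0 of 55 T cells. Ccl17 was seen in 35 (15.5%) and 53 (26.2%), against 8 of 273 (2.93%) and 2 of 55 (3.64%) T cells. Ccr7 is also a gene of T and B cells, with a UMI in 97 of 273 (35.5%) low-burden T cells and 18 of 65 (27.7%) low-burden B cells, but only in 1 of 65 and 40 of 857 (4.67%) C1q macrophages.

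Genes that the subtype rule did not use set the Ccr7 group apart in both libraries. These values come from the same cells that were grouped and are a description. Fscn1 stood at 1147 CPM in Ccr7 cells and 6.36 CPM in the other screened cells at low burden, and at 969 and 13.2 at high burden. Ccl22, a chemokine that draws Ccr4-bearing T cells, was at 521 against 13.99 and at 1065 against 29.3. Ccl5, a chemokine for effector T cells, was at 7797 against 118 and at 3494 against 124. Il4i1, an amino acid oxidase of mature dendritic cells, was at 203 against 2.54 and at 271 against 7.31, and the non-classical class I gene H2-M2 at 235 against 0 and at 135 against 8.78. Of 853 genes past the filter on low counts (50 UMIs in all and a UMI in 10% of the cells of either library), 35 were 2-fold or more higher in the Ccr7 cells in both libraries.

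The Xcr1 group carried genes of conventional type 1 cells, and genes of the cell cycle were also among its leading genes. Clec9a, a receptor for dead cells, was at 80.7 CPM against 25.01 in the other screened cells at low burden and at 39.0 against 10.8 at high burden. Tlr3, a sensor of double-stranded RNA, was at 151 against 44.3 and at 56.8 against 20.5. Gcsam, Btla and Cd24a were also higher in both libraries, with Cd24a at 580 against 277 and at 489 against 177. The transcription factor Irf8, on which type 1 cells depend, stood at 1191 CPM against 589 and at 1235 against 411. The cell cycle gene Timeless was at 74.2 CPM against 25.01 and at 64.9 against 21.5. The cell division gene Cdca8 was at 26.2 against 11.5 and at 64.9 against 30.15, with 12 and 6 UMIs behind the low-burden values.

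The Ccl17 group carried type 2 genes, and the last group carried monocyte genes. The lectin Mgl2 was at 768 CPM in Ccl17 cells against 196 in other screened cells at low burden and at 270 against 62.8 at high burden, although only 12 low-burden cells stood behind the first value. Epcam (550 against 178, then 265 against 74.1) and the lymphotoxin gene Ltb (115 against 43.3, then 319 against 37.8) were also higher there. Cells with none of the 3 genes were led by Clec4a3 (192 against 6.86, then 117 against 6.89) and by Fcgr4, an Fc receptor gene of monocytes (44.1 against 0, then 92.6 against 4.92). Their leading genes go against the name dendritic cell, but genes of dendritic cells were also present. Without the cell richest in the gene in each library, the type 2 lectin gene Cd209a was at 564 and 152 CPM in them. Xcr1 cells had 133 and 24.6. Naaa was at 703 and 285 CPM by the same measure, below the 1466 and 981 of Xcr1 cells. The mix of cell types in this group was not tested, so its cells are called by their rule below. They remain in all values given for screened cells as a whole.

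**Figure D3:**
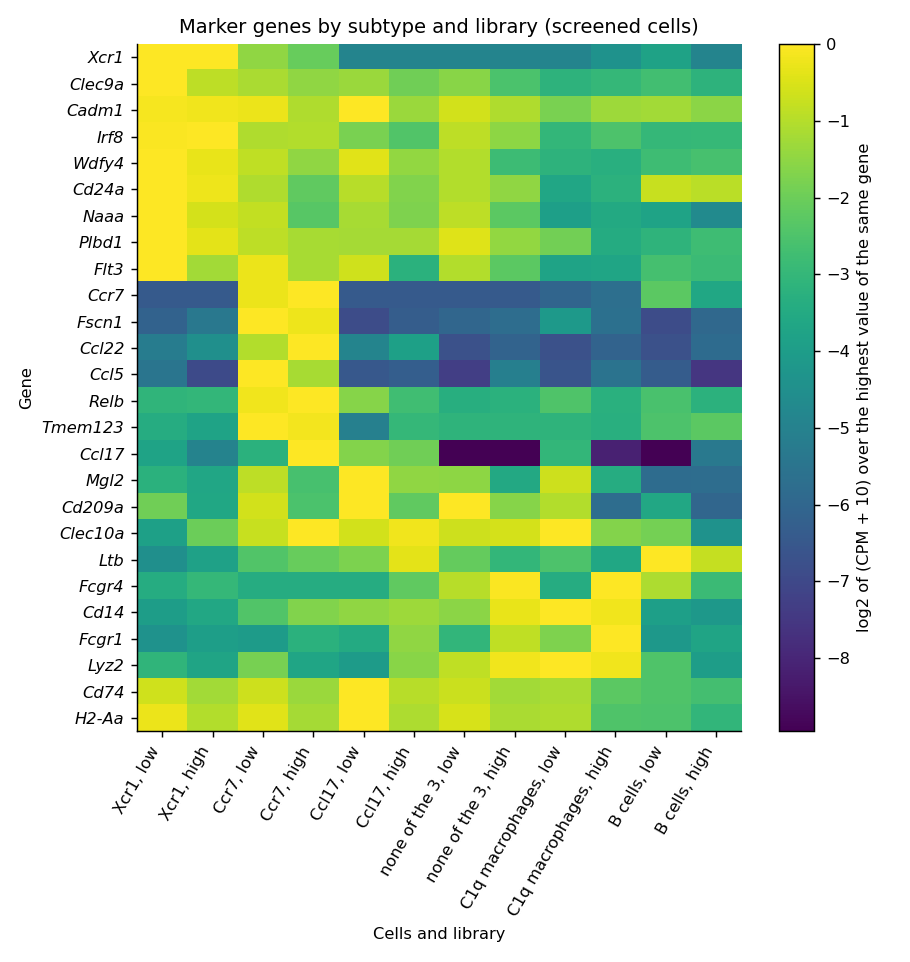
Heat map of 26 marker genes (rows) in the 4 screened subtypes, C1q macrophages and B cells of the low-burden and high-burden libraries (columns). Colour is the log2 of CPM plus 10 relative to the highest value of the same gene, so colours are comparable within a row and not between rows. Fscn1 and Ccl22 are brightest in the Ccr7 columns, and Mgl2 and H2-Aa (24960 CPM) in the low-burden Ccl17 column.

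Set against 3 other classes of the same libraries, the whole set of 428 cells was marked by few genes. The classes were C1q macrophages (65 and 857 cells), monocytes (80 and 17) and B cells (65 and 31). The 17 high-burden monocytes carried the plasmacytoid gene Siglech at 244 CPM, which was at 0 in the low-burden monocytes. In all, 32 of 6205 genes were 2-fold or more higher in these 428 cells than in each class in both libraries. The leading genes included Xcr1, Tbc1d4, Naaa, Tnni2, Btla, Cd207 and Cxx1b. Naaa was at 811 CPM in the 428 cells at low burden against 91.0, 32.7 and 103 in the classes, and at 514 against 123, 41.9 and 50.2 at high burden. In the screened cells alone Naaa was at 1133 and 605 CPM. Cd207 encodes langerin, a lectin of Langerhans cells and type 1 dendritic cells, and was at 172 and 81.4 CPM against at most 23.7 in any class. Xcr1, which also drew the subtypes, was at 109 and 103 CPM against at most 11.8.

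The libraries were then compared gene by gene in the screened cells. Of 4846 genes past the filter, 368 were 2-fold or more higher at high burden (7.59%) and 245 were 2-fold or more lower (5.06%), with a median log2 ratio of high over low burden of 0.10 over all these genes. In all 428 cells, 393 of 6205 genes were higher (6.33%) and 717 lower (11.6%), with a median of -0.09, and the 10 lowest ratios were those of Erg, Ccdc85a, Sox18, C130074G19Rik, Sema3c, Pcdh17, Nckap5, Wfdc1, Tspan7 and Ntrk2, of which Erg and Sox18 are endothelial transcription factors. The leading genes at high burden among all 428 cells were Saa3, Cxcl9, Timp1, Lcn2, Ccl12, Cfb, PYMT, AA467197, Cxcl1 and Mmp12. Among screened cells they were Cxcl9, Lcn2, Saa3, Isg15, Mmp12, Timp1, Upp1, Sphk1, Iigp1 and F10, and the lowest were Hbb-bt, Ear1, Ccl21a, Hba-a1, Ear2, Chil3, Dcn, Nccrp1, Hbb-bs and Acta2. Hbb-bt, Hba-a1 and Hbb-bs are haemoglobin genes of red cells, Ear1, Ear2 and Chil3 are genes of alveolar macrophages (the last 2 used by the rule), and Dcn and Acta2 are stromal. For the haemoglobin genes, 1 low-burden cell held 85.6% of the Hbb-bt UMIs, 75.9% of those of Hba-a1 and 70.9% of those of Hbb-bs, and 1 held 54.3% of those of Acta2. A gene could pass the filter through 1 library alone, so counts and medians over passed genes are a description here and below. By subtype over all 428 cells, the genes higher and lower were 5.54% and 5.77% of 867 in Ccr7 cells, 7.77% and 5.31% of 2446 in Xcr1 cells, 20.6% and 6.15% of 927 in Ccl17 cells, and 8.40% and 18.4% of 3820 in cells with none of the 3 genes. Screened Ccl17 cells had 19.4% higher and 6.13% lower of 767 genes, with 12 low-burden cells behind them, and their genes are not named by ratio.

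MHC class II transcripts were lower at high burden in Xcr1, Ccr7 and Ccl17 cells. The rule used H2-Aa, H2-Ab1 and H2-Eb1, so their levels are a description. The sum of these 3 genes had a median of 323 UMIs per 10000 per cell (quartiles 242 and 415) at low burden and 219 (168 and 283) at high burden. The medians were 333 and 216 in Xcr1 cells, 299.9 and 168 in Ccr7 cells and 424 and 264 in Ccl17 cells, but 213 and 222 in cells with none of the 3 genes. This last group had cells down to 2708 UMIs at low burden but only down to 5192 at high burden. The part of depth in its medians was not tested. Summed over its cells, 13 listed class II genes were at 68101 and 52413 CPM. Over all screened cells, H2-Aa, the class II alpha chain (chr17:34282744-34287823 in GRCm38), had a level of 19772 CPM (19494 to 20052) at low burden. Its level in the high-burden cells was 11741 CPM (11570 to 11913), a log2 ratio of -0.75, and H2-Ab1, a beta chain, had a ratio of -0.46. H2-Eb1 rested on 145 and 243 UMIs and had a ratio of 0.09 (-0.22 to 0.39). In B cells of the same libraries, H2-Aa was at 4431 and 2969 CPM.

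Genes of the class II pathway outside the rule did not all follow H2-Aa. Cd74, the invariant chain that guards the groove, was at 38408 CPM and 25514 CPM, a log2 ratio of -0.59 (-0.61 to -0.57). H2-DMb1, a chain of the peptide exchange factor, was at 920 and 576 CPM, with a ratio of -0.68, and its near copy H2-DMb2 was at 269 and 267 with a ratio of -0.01 (-0.23 to 0.22). H2-Ob, a chain of the inhibitor of that exchange, was at 94.0 and 33.0 CPM with a ratio of -1.51 (-2.03 to -1.001), and H2-Oa had -0.69. Ciita rested on 44 and 88 UMIs, with a ratio of 0.34 (-0.20 to 0.90). The proteases went the other way, with the cathepsin Ctss at 884 and 1692 CPM (0.94, 0.82 to 1.05) and the legumain Lgmn at 48.0 and 147 CPM (1.61, 1.15 to 2.10). Of 13 listed class II genes, all passed the filter, 1 was 2-fold or more higher and 1 was 2-fold or more lower, with a list median of -0.27 beside 0.10 over all genes.

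The subtypes differed in these genes. In Xcr1 cells Ctss was at 489 and 406 CPM with a ratio of -0.27, whereas in cells with none of the 3 genes it was at 1358 and 3356 CPM with a ratio of 1.31 (1.14 to 1.48). H2-DMb1 had -0.82 in Xcr1 cells, -1.39 (-1.84 to -0.96) in Ccr7 cells and -0.12 (-0.38 to 0.15) in cells with none of the 3 genes. H2-DMb2, with the same promoter elements shown above, had 0.24, 0.38 and -0.81 in these groups, but each of the counting intervals rested on no more than 149 UMIs per library. Ifi30, the thiol reductase that opens antigen in the lysosome, had 0.38, 0.39 and 0.26.

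**Figure D4:**
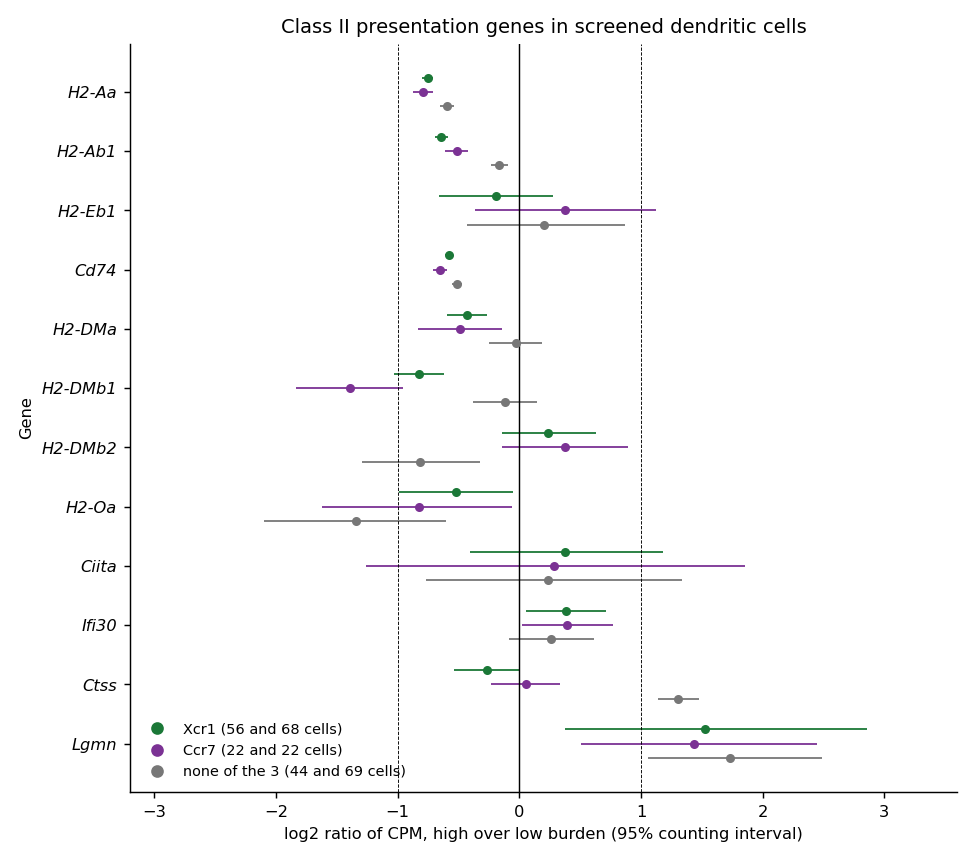
Log2 ratio of high over low burden for 12 class II presentation genes in screened Xcr1 cells, Ccr7 cells and cells with none of the 3 subtype genes, with exact 95% counting intervals. H2-Aa and Cd74 lie left of 0 in all 3 groups, and Ctss lies near 0 in Xcr1 and Ccr7 cells (-0.27 and 0.05) and at 1.31 in cells with none of the 3 genes.

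Flt3 and Bcl11a were the listed core genes of the lineage past 2-fold, both lower at high burden, as were 5.06% of all 4846 genes. Flt3 was at 100 CPM (81.3 to 122) and 31.7 CPM (23.5 to 41.9), a log2 ratio of -1.66 (-2.19 to -1.15), and it had a UMI in 57 of 134 and 35 of 184 cells. The ratio was -1.43 (-2.12 to -0.76) in Xcr1 cells, in which Flt3 stood at 127 and 47.1 CPM. In T cells, which should lack the gene, it was seen in 1 of 273 and 1 of 55 cells. Naaa was at 1133 and 605 CPM (-0.90, -1.03 to -0.78) and Plbd1 at 576 and 394 CPM (-0.55). Of 10 listed core genes, all passed the filter, none was 2-fold or more higher and 2 were 2-fold or more lower, with a median of -0.65 beside 0.10 over all genes. The lower genes were Flt3 and Bcl11a. In Xcr1 cells 8 passed and 1 was lower, and in Ccr7 cells 5 passed and 1 was lower. Zbtb46, a transcription factor of the conventional lineage, rested on 35 and 32 UMIs with a ratio of -0.79 (-1.53 to -0.05).

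In Xcr1 cells Clec9a and Tlr3 were lower at high burden and Irf8 was close to level. Irf8 was at 1191 CPM at low burden and 1235 CPM at high burden, a ratio of 0.05 (-0.11 to 0.21), and its partner Batf3 was at 148 and 130 CPM with -0.19 (-0.68 to 0.30). Clec9a was at 80.7 and 39.0 CPM (-1.05, -1.86 to -0.27) and had a UMI in 50.0% and 26.5% of these cells. Tlr3 was at 151 and 56.8 CPM (-1.41, -2.04 to -0.80). The integrin gene Itgae, which encodes CD103 of lung type 1 cells, was at 194 and 107 CPM (-0.86, -1.34 to -0.38), and Cadm1, another type 1 surface gene, was at 140 and 132 CPM. Of 14 listed type 1 genes, all passed in Xcr1 cells, 0 were higher and 2 were lower by 2-fold or more, with a median of -0.23, and 12.7% of the 2379 genes tested in Xcr1 cells were past 2-fold in either direction (7.73% higher, 4.92% lower). The 2 lower genes were Clec9a and Tlr3.

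Cd209a and Mgl2, lectins of type 2 cells, were lower at high burden and Clec10a was not. Cd209a, a homologue of DC-SIGN, was at 363 CPM (326 to 403) at low burden and 115 CPM (98.9 to 134) at high burden, a ratio of -1.66 (-1.92 to -1.39), and its ratio was -1.88 in Xcr1 cells, -2.02 in Ccr7 cells and -1.66 in cells with none of the 3 genes. Mgl2 was at 241 and 92.6 CPM (-1.38, -1.69 to -1.08). Clec10a, a close copy of Mgl2 with which it could share reads, was at 65.4 and 110 CPM (0.75, 0.33 to 1.19), so the separate values of this pair are uncertain. Klf4, a factor of type 2 development, had -0.94. Of 14 listed type 2 genes, 11 passed, 1 was higher and 2 were lower by 2-fold or more, with a median of 0.51. The higher gene was Ccl17, which the subtype rule used.

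Chemokine genes differed by subtype. Of 15 listed chemokines, all passed the filter in screened cells, 9 were 2-fold or more higher at high burden and 1 was lower, with a median of 1.06. In Xcr1 cells 7 passed, 2 were higher and 3 were lower (median 0.44), and in Ccr7 cells 7 passed, 3 were higher and 1 was lower (0.30). In cells with none of the 3 genes 12 passed, 9 were higher and 0 were lower. Cxcl9, an interferon-induced ligand of Cxcr3 on T cells, rested on 1 UMI at low burden (1.02 CPM) and 359 UMIs at high burden (232 CPM, 209 to 258), a ratio of 7.83 (5.34 to 13.1). It had a UMI in 1 of 134 low-burden and 56 of 184 high-burden cells (30.4%), against 3 of 55 high-burden T cells (5.45%) and 262 of 857 C1q macrophages (30.6%). Its level in T cells was 0 and 5.98 CPM. Within subtypes, Cxcl9 was at 2.18 and 161 CPM in Xcr1 cells, at 0 and 163 CPM in Ccr7 cells and at 0 and 310 CPM in cells with none of the 3 genes. Set against 3 UMIs in place of 0, the last ratio was at least 4.69.

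Among chemokines that attract neutrophils or monocytes, Cxcl2 was at 58.3 CPM and 1058 CPM, a ratio of 4.18 (3.802 to 4.59), and T cells had 144 and 57.8 CPM. By subtype its ratio was 2.21 in Xcr1 cells, 5.09 in Ccr7 cells and 3.89 in cells with none of the 3 genes, with levels of 151, 1245 and 2015 CPM at high burden. Cxcl1 was at 11.2 and 144 CPM, with 90.9% of its low-burden UMIs in 1 cell, and T cells had 15.3 and 75.7. Ccl2, the ligand of Ccr2 on monocytes, was at 30.7 and 130 CPM (2.08, 1.53 to 2.69), and Cxcl10 at 7.16 and 101 CPM (3.82, 2.74 to 5.16). Cxcl16 was nearer to level at 238 and 366 CPM (0.62). Ccl5 was the 1 listed chemokine that was lower, at 1624 and 511 CPM, although a single cell held 50.1% of its low-burden and 43.1% of its high-burden UMIs.

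**Figure D5:**
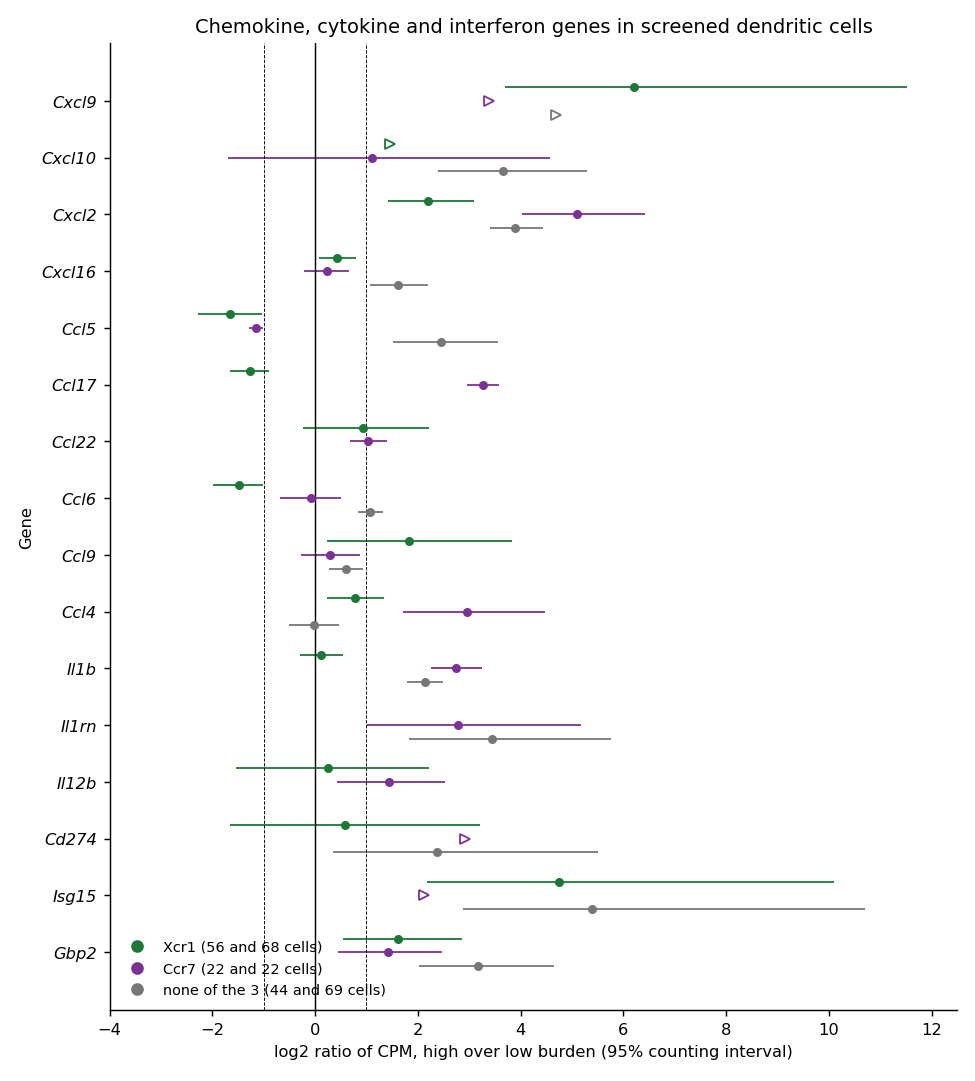
Log2 ratio of high over low burden for 16 chemokine, cytokine, checkpoint and interferon genes in screened Xcr1 cells, Ccr7 cells and cells with none of the 3 genes, with exact 95% counting intervals; open triangles are lower bounds against 3 UMIs where the low-burden cells had none, and genes at 3 or fewer UMIs in both libraries or 0 at high burden have no point. Cxcl2 lies right of 2 in all 3 groups, and Ccl17 lies on opposite sides of 0 in Xcr1 and Ccr7 cells.

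Ccl17, a chemokine that attracts Ccr4-bearing T cells, had ratios of opposite sign in Ccr7 and Xcr1 cells, and the difference between these subtypes was not tested. It lies beside Ccl22 on chromosome 8 (chr8:94810453-94812036 and chr8:94745590-94751699). It helped to draw the subtypes, but Ccr7 and Xcr1 took precedence over it. In Ccr7 cells it was at 516 CPM (419 to 628) at low burden and 4942 CPM (4621 to 5281) at high burden, a ratio of 3.26 (2.96 to 3.57). Without the cell that held the most of it in each library, the levels were 306 and 3789 CPM and the ratio was 3.63. In Xcr1 cells it was at 360 and 149 CPM, a ratio of -1.27 (-1.65 to -0.89), but 1 low-burden cell held 51.5% of the UMIs and without the top cell of each library the ratio was -0.82. T cells had 8.11 and 3.98 CPM.

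The Ccr7 cells were not alike within a library. At low burden 16 of the 23 Ccr7 cells among all 428 had a single Ccr7 UMI, and together they stood at 20.9 CPM of Ccl22 and 90.4 CPM of Ccl5, whereas 6 cells with 2 or more Ccr7 UMIs and an Fscn1 UMI stood at 2447 and 34386 CPM. At high burden 6 of 22 had a single Ccr7 UMI. The 10 high-burden cells with 2 or more Ccr7 UMIs and Fscn1 were at 2215 CPM of Ccl22, 7611 of Ccl5, 3933 of Ccl17 and 7904 of H2-Aa. Another 12 high-burden cells had Ccr7 without Fscn1, at 152 CPM of Ccl22, 5745 of Ccl17 and 13341 of H2-Aa. Low-burden Ccr7 cells without Fscn1 were 16 in number and stood at 208 CPM of Ccl17 and 21745 of H2-Aa. Summed over cells, Ccl17 was higher at high burden in Ccr7 cells with Fscn1 (1297 CPM in the 7 low-burden cells) and in those without it. By Ccr7 count the direction differed. Cells with 2 or more Ccr7 UMIs were at 1404 CPM of Ccl17 at low burden and 6673 at high burden. Cells with a single Ccr7 UMI were at 202 CPM at low burden and 0 at high burden. Of these single-UMI cells, 1 at low burden and 0 at high burden had Fscn1, so the groups without Fscn1 differed in their mix of Ccr7 counts.

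In the 22 low-burden and 22 high-burden screened Ccr7 cells the maturation genes themselves were mixed. Of 853 genes past the filter, 52 were higher (6.10%) and 51 lower (5.98%) by 2-fold or more. Of 20 listed maturation genes, 11 passed, 2 were higher (Ccl22 and Samsn1) and 1 was lower (Ccl5), with a median of 0.27 beside 0.13 over all genes. Before the screen, with 23 and 22 Ccr7 cells, 0 were higher and 1 was lower, with a median of 0.129 beside 0.126. Ccl22 was at 521 and 1065 CPM (1.03, 0.67 to 1.40), Fscn1 at 1147 and 969 CPM (-0.24, -0.54 to 0.05) and Relb, an NF-kappaB subunit of mature cells, at 292 and 333 CPM (0.19). In the 6 low-burden and 10 high-burden cells with 2 or more Ccr7 UMIs and Fscn1, Ccl22 was at 2447 and 2215 CPM. Ccl5 was at 7797 and 3494 CPM (-1.16, -1.30 to -1.02), and 1 cell held 53.2% and 54.8% of these UMIs. The checkpoint ligand Cd274 (PD-L1) was at 0 UMIs in 22 low-burden cells and at 21 UMIs in 22 high-burden cells, where it was seen in 9 cells or 40.9%, and against 3 UMIs in place of 0 its ratio was at least 2.92. In all screened cells, Cd274 was at 5.11 and 40.8 CPM (3.00, 1.70 to 4.67), the costimulatory receptor Cd40 at 11.2 and 46.6 CPM (2.05, 1.13 to 3.12) and Cd86 at 131 and 146 CPM (0.16, -0.16 to 0.49). T cells had 20.7 and 0 CPM of Cd274. Il12b, a subunit of the T cell cytokine IL-12, rested on 17 and 38 UMIs (0.50, -0.36 to 1.42) and did not pass the filter.

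Il1b, an inflammatory cytokine, was close to level in Xcr1 cells and higher in the other groups. It was at 177 and 192 CPM in Xcr1 cells (0.12, -0.30 to 0.54), at 219 and 1460 CPM in Ccr7 cells (2.74, 2.26 to 3.24) and at 312 and 1369 CPM in cells with none of the 3 genes (2.13, 1.79 to 2.49). T cells had 92.8 and 81.7 CPM. Its antagonist Il1rn was at 7.16 and 68.0 CPM over all screened cells (3.25), and the decoy receptor Il1r2 at 7.16 and 51.1 CPM (2.84). Of 16 listed cytokines, 7 passed, 2 were higher (Il1b and Il1rn) and 1 was lower (Il16, -1.23) by 2-fold or more, with a median of -0.43. Tnf, another inflammatory cytokine, was at 32.7 and 39.5 CPM (0.27, -0.37 to 0.94).

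The 18 listed interferon response genes summed to 2320 CPM at low burden and 4401 CPM at high burden. Of these, 8 passed, 6 were 2-fold or more higher and 0 were lower, with a median of 2.15 over the passed genes, some of which passed through the high-burden cells alone. Ly6e, with many of the UMIs, was at 1178 and 1339 CPM (0.19). Isg15, a ubiquitin-like protein, rested on 2 UMIs at low burden and 181 at high burden (2.04 and 117 CPM, ratio 5.84, 3.97 to 8.90). The GTPase gene Gbp2 was at 31.7 and 157 CPM (2.31, 1.76 to 2.89). In T cells Isg15 was at 25.2 and 51.8 CPM and Gbp2 at 46.0 and 45.8. Gbp2 was at 19.6 and 60.1 CPM in Xcr1 cells (1.61, 0.54 to 2.85) and at 24.03 and 217 CPM in cells with none of the 3 genes (3.18, 2.01 to 4.65). Ifitm3, which limits virus entry, was higher in Xcr1 cells (161 and 558 CPM, 1.79) and level in cells with none of the 3 genes (2050 and 1894 CPM, -0.11, -0.27 to 0.04).

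Class I presentation genes are given beside the 7.59% of all 4846 genes that were 2-fold or more higher and the 5.06% lower. Of 16 listed genes, 14 passed, 1 was higher and 0 were lower by 2-fold or more, with a median of 0.34. B2m, the light chain, was at 3327 and 3924 CPM (0.24), H2-K1, a heavy chain, at 1259 and 1435 CPM (0.19), and Psme2, a proteasome activator induced by interferon, at 296 and 622 CPM (1.07, 0.88 to 1.26), beside 267 and 418 in T cells.

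Genes that were higher in T cells too formed a further set. Of 14 listed glycolysis and hypoxia genes, 13 passed and 5 were higher, with Gapdh at 424 and 1523 CPM (1.84) and 564 and 1558 CPM in T cells. Of 10 S100 and galectin genes, all passed and 6 were higher, with S100a6 at 578 and 2878 CPM beside 1021 and 4113 in T cells, and Lgals1 at 506 and 2358 beside 1413 and 4287. Of 16 cell division genes, 14 passed and 11 were higher, with Birc5 at 26.6 and 162 CPM beside 59.5 and 293 in T cells, and Mki67 at 12.3 and 31.1 CPM beside 27.9 and 83.7. Spp1, osteopontin, was at 138 and 1471 CPM beside 326 and 3629, Lcn2 at 2.04 and 254 beside 13.5 and 381, and Fabp5 at 54.2 and 294 beside 119 and 273. The part of RNA from outside the cells in these levels was not tested.

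Immediate early and adhesion genes are given beside the 12.6% of all 4846 genes that were past 2-fold (7.59% higher, 5.06% lower). Of 16 immediate early and stress genes, all passed, 1 was higher and 1 was lower by 2-fold or more, with a median of -0.52. The lower gene was Jund, at 1406 and 593 CPM (-1.25), and Fos was at 2311 and 1169 CPM (-0.98), against 743 and 594 CPM in T cells. Of 16 adhesion and migration genes, 15 passed, 1 was higher and 5 were lower, with a median of -0.75, and Itgb7, a partner of CD103, was at 262 and 113 CPM (-1.21, -1.49 to -0.92). The chemokine receptor Cxcr4 was at 72.6 and 17.5 CPM (-2.05, -2.75 to -1.40) and at 205 and 39.8 CPM in T cells. Kit, the stem cell factor receptor, was at 58.3 and 24.6 CPM (-1.24), and Notch2, a receptor needed by a type 2 subset, at 93.0 and 30.4 CPM (-1.61, -2.15 to -1.09).

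Receptors and regulators were past 2-fold in both directions. Of 11 chemokine receptors, 8 passed, 1 was higher (Ccr1, 22.5 and 94.5 CPM) and 2 were lower (Cxcr4 and Cxcr3), with a median of -0.25. Of 18 pattern and lectin receptors, 11 passed, 3 were higher (Clec4n, Clec4e and the endotoxin co-receptor Cd14) and 4 were lower (Cd209a, Tlr3, Mgl2 and Clec9a). Of 16 listed regulators of the lineage, 14 passed, 1 was higher (Nfil3, 1.25) and 2 were lower (the receptor Notch2, and the transcription factor Bcl11a, -1.37). Of 10 growth factor and cytokine receptors, 9 passed, 2 were higher (Il4ra and Il1r2) and 2 were lower (Flt3 and Kit). Of 12 lysosomal protease and inhibitor genes, all passed and 3 were higher, with the dipeptidyl peptidase Ctsc at 146 and 503 CPM (1.78, 1.52 to 2.05) and at 212 and 1008 CPM in cells with none of the 3 genes, beside 113 and 65.7 in T cells.

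Named by their ratios alone, the Xcr1 cells were led at high burden by Cxcl9, Lcn2, Cdkn2a, Serpina3g and Sdc4, and at the low end by genes that included Ccl21a, Acta2, Dpep2 and Myadm. Lcn2 and Cdkn2a (1 and 79 UMIs) are also listed genes of the metastatic cells, and the part of their RNA from outside the Xcr1 cells was not tested. For Acta2, 1 cell held 71.8% of the 71 low-burden UMIs, and without the top cell of each library its ratio moved from -3.41 to -1.76. Serpina3g, a serine protease inhibitor, was at 4.36 and 114 CPM (4.70, 2.80 to 7.78) beside 6.31 and 19.9 in T cells. Plac8, a lysosomal protein of immune cells, and S100a4, a calcium-binding protein, stood at 19.6 and 226 CPM and at 23.99 and 377 CPM in Xcr1 cells, with ratios of 3.52 and 3.97. T cells had 116 and 179 CPM of Plac8 and 349.6 and 1113 of S100a4. In cells with none of the 3 genes, Plac8 was at 1362 and 590 CPM (-1.21, -1.43 to -0.98).

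The Ccr7 cells were led by Cxcl2, Ifitm1, Clec4n, Ccl17 and Spp1, and at the low end by Sepp1, Timp3, Apoe, Tnni2 and Plp2. Clec4n encodes the lectin Dectin-2 and was at 15.6 and 383 CPM (4.61, 3.01 to 6.93), with 64.0 and 15.9 in T cells. Apoe, the lipid carrier, was at 2919 and 372 CPM, a ratio of -2.97, but 1 low-burden cell held 86.4% of its UMIs. Without the top cell of each library, Apoe was at 416 and 291 CPM with a ratio of -0.52. For Sepp1, a selenium transport protein, 1 cell held 77.0% of 113 low-burden UMIs, and the ratio moved from -4.12 to -2.26 without the top cell of each library. Timp3, an inhibitor of matrix proteases, moved in the same way from -3.06 to -1.32. T cells had 756 and 496 CPM of Apoe and 553 and 215 of Sepp1.

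Cells with none of the 3 genes had 217 of 1882 genes (11.5%) higher and 111 (5.90%) lower by 2-fold or more, with Isg15, Ifitm1, Cxcl9, Spp1 and Ly6i leading and Hbb-bt, Hba-a1, Hbb-bs, Dcn and Ear2 last. Without the top cell of each library, low-burden Hbb-bt UMIs went from 275 to 8 and its ratio from -4.94 to -0.41, Hba-a1 went from -4.43 to -0.82 and Hbb-bs from -3.93 to -0.47. Of 16 listed monocyte genes, 9 passed in them, 3 were higher and 1 was lower, with a median of 0.52 beside 0.14 over all genes. The Fc receptor gene Fcgr1 was at 20.0 and 131 CPM (2.70, 1.41 to 4.37) and the lectin gene Clec4e, known as Mincle, at 16.02 and 94.5 CPM (2.56). The 12 chemokines that passed in them had a median of 2.04. Naaa was lower in these cells too, at 813 and 308 CPM (-1.40, -1.71 to -1.10).

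Other cell types were measured in the screened cells with the same lists. Of 14 macrophage genes, 11 passed and 6 were higher, and their summed level was 1426 and 3470 CPM, with C1qa, which the rule limits, at 15.3 and 111 CPM beside 7.21 and 145 in T cells. The 10 alveolar macrophage genes summed to 326 and 82.9 CPM, the 8 neutrophil genes to 162 and 495, the 10 epithelial genes to 4034 and 2670, the 8 endothelial genes to 521 and 259, the 8 stromal genes to 1317 and 1640, the 14 T and NK cell genes to 180 and 122, the 12 B cell genes to 54.2 and 46.6 and the 10 plasmacytoid genes to 329 and 365. The 16 monocyte genes summed to 4983 and 6968 CPM, and the 9 genes of the metastatic cells to 107 and 724. The B cell factor Pax5 and the neutrophil granule gene Ngp were at 0 UMIs in both libraries. The part of these cells in the results above was not tested.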

How the data were processed

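Single-cell RNA was measured in 1 low-burden and 1 high-burden lung. The deposited files hold raw UMI counts per gene and cell, which the authors made with Cell Ranger 2.0.2 on a mouse genome (mm10) with PYMT appended. The mice were FVB/NJ, whose alleles differ from that genome, and the effect on class II counts was not tested. Whether the matrices precede the depth equalisation named in the methods is not given in the sources used here. Cells with 1000 to 7000 genes and at most 10% mitochondrial counts were kept. Counts were summed over cells and divided by their total (CPM), and ratios were formed for genes with 50 or more UMIs and a UMI in 10% of the cells of either library. With 1 mouse and 1 library per group there is no replicate check, no test was run, and a gene was called past 2-fold. Intervals are exact Poisson, conditional binomial or Clopper-Pearson intervals at 95%, for counting error only. Genes with 0 UMIs in 1 library were set against 3 UMIs. Members, gene lists and rules were chosen with earlier results of these data known. Named genes were the 10 highest and 10 lowest ratios among all cells, 5 and 5 per subtype with 20 or more cells in each library, the 10 genes most enriched in each subtype, 8 against other classes, and of each list up to 4 with the most UMIs plus the highest and the lowest. The same rule was run on the screened cells, and the other genes named with values were chosen after these were seen. Of 362 listed genes, 8 were not found by symbol (Clec7a, Ighd, Ighm, Igkc, Iglc2, Pclaf, Trac and Trbc2). Scrublet called 3 low-burden (0.121%) and 8 high-burden (0.264%) doublets, too few to trust as a caller, so none were removed. Alternatives were other class II limits, a lineage gene UMI, thinning, equal weights for cells or subtypes, median-of-ratios scaling, no filter, and leaving out doublets, PYMT cells or single cells. Scripts were tested on simulated data and ran on Python 3.11.15, numpy 2.4.6, scipy 1.17.1, pandas 2.3.3, scanpy 1.11.5 and matplotlib 3.10.9. Some genes that the rule names are not reported here.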

Additional observations from a re-analysis of the deposited data

Results flagged for a closer look

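Among all cells chosen by the rule, 2 genes had log2 ratios of high over low burden of opposite sign in the Ccr7 and Xcr1 subtypes. Ccl17 stood at 3.23 in Ccr7 cells and -1.32 in Xcr1 cells, and without the cell richest in Ccl17 in each library the Xcr1 value was -0.87. Apoe stood at -2.93 in Ccr7 cells and 1.02 in Xcr1 cells, and without its richest cell in each library the Ccr7 value was -0.49. With 1 mouse per group the difference between the subtypes was not tested, and Ccl17 is also a gene of the subtype rule.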

How the results depend on the processing

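No paired analysis was possible because each group was 1 mouse and 1 library. The low-burden share of kept cells (9.14%) was 5.98% with a class II limit of 50, 12.7% with 20, 5.10% where a UMI of Flt3, Zbtb46, Xcr1, Clec9a, Cd209a, Ccl17, Ccr7 or Siglech was also asked for, and 5.42% after the screen chosen after seeing the data. The high-burden share (6.66%) was 4.85% with that lineage gene. At low burden the Ccr7 share (10.2%) was 18.3% with a lineage gene, 16.4% screened, 5.31% thinned to 2000 UMIs and 3.10% with 2 UMIs asked for. The low-burden Xcr1 share (25.2%) was 38.5% and 18.2% with limits of 50 and 20, 45.2% with a lineage gene, 41.8% screened, 12.4% thinned and 18.6% with 2 UMIs, and the Ccl17 share (5.75%) was 10.3% with a lineage gene. The share with none of the 3 genes (58.8%) was 39.9%, 69.1%, 26.2%, 32.8%, 75.7% and 69.9% in the same order. At high burden thinning gave 5.94% for Ccr7 (10.9%), 17.8% for Xcr1 (34.2%) and 64.9% for none (40.6%), a lineage gene gave 46.9% for Xcr1 and 18.4% for none, and 2 UMIs gave 23.3% and 58.4%. Genes higher at high burden (393) numbered 1485 without the filter and 230 without PYMT cells. Genes lower (717) numbered 315 and 1146 with limits of 50 and 20, 266 with a lineage gene, 245 screened and 2076 without the filter. Genes over all 3 other classes (32) numbered 50 screened. The plasmacytoid list median (-1.07) was 0.204 without the filter, and the stromal median (1.95) was -0.656 screened. The cause was not tested. Over all alternatives, 5 of 10 shares and 32 of 56 subtype shares stayed within the counting interval, and 15 of 22 gene counts within 1.5 times. Of 330 list medians, 320 stayed under or past 2-fold as before, or moved by less than 0.3. A median under 2-fold could change sign and still count, as the epithelial median did (0.173 over all cells, -0.661 screened). By the same criterion ratios of named genes held in 219 of 219 cases over all cells, 119 of 120 in Xcr1 cells (Ccl17 moved) and 99 of 100 in Ccr7 cells (Apoe moved). Most of these genes were picked for the most extreme ratios in the same data. They had far to move before they crossed 2-fold, so these counts cannot show how firm the ratios are. The median-of-ratios shift of -0.15 was subtracted from every log2 ratio, so each ratio rose. Genes at 3 or fewer UMIs in a library, and the 12 low-burden Ccl17 cells, limit what these counts can resolve.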
